A study of Mus musculus with 16 samples.

Results

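Oxidative phosphorylation genes were followed across 4 genotypes of mouse hippocampus. The genes were chosen by name only: every feature of the array that its annotation paired with a single symbol starting with Nduf, Sdha, Sdhb, Sdhc, Sdhd, Uqcr, Cox4i, Cox5, Cox6, Cox7, Cox8 or Atp5, or with Cyc1. The rule found 186 probe sets of 45101, for 95 genes of the 18193 that had a single symbol. A probe set is a group of short probes that reads the RNA of 1 gene. The genes comprised 6 core and 28 accessory subunits of complex I with 8 of its assembly factors, 4 subunits of complex II with 4 assembly factors, 9 genes of complex III, 19 of complex IV and 17 of complex V. Assembly factors (symbols starting with Ndufaf and Sdhaf) came in through the spelling of their names and were kept as groups of their own. Ndufa4 and Ndufa4l2, named as complex I subunits, were counted with complex IV.

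RNA came from the hippocampus of male mice aged 2 months, whose strain is labelled C56/BL6, and each genotype had 4 arrays. WT was labelled wild type, APP_KO was labelled APP-/-, APLP2_KO was labelled APLP2-/-, and N_dCKO was labelled as lacking both genes, APP-/- and APLP2-/-. The titles call N_dCKO a neuronal conditional double knockout, and the Cre driver and the cells that still carry the genes are not stated in the labels. The labels do not call the 4 samples of a group separate animals, so each p-value reflects only how far these samples vary, and that variation could be technical. In whole tissue, fewer cells of a type and less RNA per cell cannot be told apart.

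Oxidative phosphorylation is the last stage of respiration, carried out in the inner mitochondrial membrane. Complexes I and II pass electrons from NADH and succinate to ubiquinone, complex III passes them on to cytochrome c, and complex IV passes them to oxygen. Complexes I, III and IV pump protons, and complex V, the ATP synthase, uses their return to make ATP, on which synaptic transmission in neurons depends. All subunits counted here are encoded in the nucleus, and several subunits of complex IV exist as isoforms used in heart, muscle, lung or testis in place of the common form.

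Promoter sequences of these genes carried the letters of known regulators of respiratory genes more often than promoters in general. Windows of 300 bases, from 250 before to 50 after the annotated start, were found for 78 of the 95 genes, 83 windows in all, in RefSeq on GRCm38.p6. The motifs were chosen with the sequences in view and were searched on both strands, and matches to different motifs could overlap. CGCANGCGC, the letters bound by nuclear respiratory factor 1, was in 32.5% of the 83 windows and in 6.31% of all 32851 promoter windows. CCGGAAG, bound by ETS factors such as GABPA, was in 26.5% against 8.86%, and AAGATGGC, bound by YY1, was in 10 of the 83 windows against 2.75% of all. The shares were closer for the Sp1 letters GGGCGG, 48.2% against 35.7%, for CCAAT, 41.0% against 37.4%, and for TATAAA, 10 of the 83 against 13.6%. The median G and C content was 59.0% in the 83 windows and 52.7% in all windows. By complex, CGCANGCGC was in 9 of 18 windows of complex V, in 8 of 28 of the accessory subunits of complex I, in 1 of 13 of complex IV and in 0 of 5 of the complex I core. A match describes letters in a window and is not evidence of binding. The 4 stretches below belong to genes described further on: Ndufs5 and Sdha, with the smallest unadjusted p of their complexes in N_dCKO, Cox6b2, with the lowest log2 value there, and Atp5j, the nearest neighbour of App. Capitals mark matches to CGCANGCGC or CCGGAAG, and each stretch runs 5′ to 3′ on the gene's strand, which is the minus strand for all 4. The Atp5j stretch is cut to 30 bases around its match. A further Atp5j window, chr16:84835576-84835875, belongs to a different annotated start and holds no match to either motif.
Ndufs5, chr4:123718187-123718436, match 97 bases before the start: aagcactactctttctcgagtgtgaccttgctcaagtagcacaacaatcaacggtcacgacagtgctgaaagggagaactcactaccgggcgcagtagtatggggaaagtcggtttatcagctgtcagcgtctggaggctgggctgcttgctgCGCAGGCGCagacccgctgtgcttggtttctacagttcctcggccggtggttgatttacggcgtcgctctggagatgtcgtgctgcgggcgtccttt
Sdha, chr13:74350241-74350316, matches 54 and 9 bases before the start: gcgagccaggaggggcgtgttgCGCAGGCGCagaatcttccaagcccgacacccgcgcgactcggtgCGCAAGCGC
Cox6b2, chr7:4753095-4753225, no match: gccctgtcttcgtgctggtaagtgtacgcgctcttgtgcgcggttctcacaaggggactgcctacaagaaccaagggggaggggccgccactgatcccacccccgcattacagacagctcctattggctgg
Atp5j, chr16:84835019-84835048, match 61 bases before the start: agctgagggacCCGGAAGcacttaccctcc

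The arrays were alike in scale, with a median signal of 79.7 to 101.6. The App signal fell to 13.6% of WT in APP_KO and 11.8% in N_dCKO, and the Aplp2 signal fell to 19.4% in APLP2_KO and 16.7% in N_dCKO. Markers of hippocampal neurons were present on every array, with a mean log2 level of 11.08 to 11.35. In N_dCKO 1 of the 12, Spink8, was called lower, and 9 of the 12 lay above 0. At an unadjusted p below 0.05 in limma 3 of the 12 passed there, all lower, beside 12% of all genes. In APLP2_KO 2 of the 12 passed, all lower, beside 7.44% of all genes, and in APP_KO 0 passed. Other cell types differed as well. The mean log2 level of 11 choroid plexus markers was 5.91 to 8.79 in N_dCKO against 9.13 to 10.07 in WT, and 10 of the 11 were called lower there. In APP_KO and APLP2_KO this level was 8.70 to 9.78 and 8.91 to 9.26, with no marker called. Myelin markers were at 11.76 to 12.21 in N_dCKO (1 of 11 called lower), 11.81 to 12.66 in APP_KO and 12.35 to 12.58 in APLP2_KO against 12.43 to 12.86 in WT, and in APP_KO 9 of the 11 had an unadjusted p below 0.05 in limma, all lower. Microglial markers were at 9.45 to 9.68 in N_dCKO (5 of 11 called lower), 9.72 to 9.87 in APP_KO and 9.70 to 9.76 in APLP2_KO, all below the 9.95 to 10.05 of WT, and 5 and 7 of the 11 were lower at an unadjusted p below 0.05 in the 2 single knockouts, where none was called in limma. Astrocyte markers were at 12.22 to 12.28 in N_dCKO, 12.16 to 12.21 in APP_KO and 12.18 to 12.28 in APLP2_KO, all above the 12.09 to 12.14 of WT. None of the 10 astrocyte and 7 endothelial markers tested was called in any knockout against WT with limma, with 4 and 0 of them at an unadjusted p below 0.05 in N_dCKO. RNA integrity was read as the 3′ over the 5′ signal, which was 0.80 to 0.83 in N_dCKO and 0.75 to 0.79 in WT for Gapdh, and 1.57 to 1.74 and 1.60 to 1.71 for actin. The part of these differences in the values of the respiratory genes was not tested.

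No oxidative phosphorylation gene was called in any comparison. Of the 95 genes, 91 passed a filter on low signal (a mean log2 of 6.60, or a signal of 87.9) and were tested in limma together with all 11668 genes, and a gene was called at a Benjamini-Hochberg adjusted p below 0.05. The call rate over all genes was 0.00857% in APP_KO against WT (1 gene), 0.129% in APLP2_KO against WT (15 genes) and 0.943% in N_dCKO against WT (110 genes). Fewer than 1 called gene among 91 would match these rates, so a count of 0 is near the background. At an unadjusted p below 0.05, 2 of the 91 passed in APP_KO (1 higher, 1 lower) against 5.18% of all genes, 3 in APLP2_KO (1 higher, 2 lower) against 7.44%, and 7 in N_dCKO (2 higher, 5 lower) against 12% of all genes. The 4 arrays of a knockout and of WT did not overlap for 3 of the 91 in APP_KO, 3 in APLP2_KO and 6 in N_dCKO, with 2.63%, 4.4% and 7.35% of all genes.

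The respiratory genes were more evenly measured than the other genes tested as a whole, so small differences could be bounded. The median SE of a log2 difference was 0.057 for the 91 genes and 0.098 for the other genes tested. It was also 0.057 for 17 genes of pyruvate dehydrogenase and the citric acid cycle and 0.059 for 13 glycolysis genes. The other genes were not matched for signal: 83 of the 91 passed a filter at the 75th percentile, where 7037 of all 11668 genes did. Against WT, the 95% interval of the difference lay wholly between -0.25 and 0.25 for 78 of the 91 in APP_KO, 78 in APLP2_KO and 72 in N_dCKO. Over the other genes the same held for 41.0%, 37.8% and 35.6%. Within 0.5 either way lay 86, 86 and 85 of the 91. These intervals leave room for differences smaller than the bounds.

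The median log2 difference over the 91 genes was 0.015 in APP_KO against WT, with 58 above 0 and 33 below, while the median of all genes was -0.0038. In APLP2_KO it was 0.0084, with 51 above 0, against -0.0081 for all genes. In N_dCKO it was -0.032, with 26 above 0 and 65 below, against -0.0041 for all genes. The array medians of N_dCKO, taken as the difference from the WT mean, lay between -0.051 and -0.017, and those of WT between -0.069 and 0.037, so the groups overlapped. The medians of the 2 single knockouts turned below 0 under other scalings. They were -0.0016 and -0.012 after quantile normalization, and -0.077 and -0.070 after centring each array on its median, which moved the median of all genes to -0.096 and -0.086. In N_dCKO the median stayed below 0, at -0.022 with 61 genes below 0 and at -0.12, where centring moved the median of all genes to -0.092. Single arrays moved these medians too. In APP_KO the median was 0.000065 without APP_KO replicate 3 and 0.0033 without WT replicate 1, and 0.026 to 0.032 without WT replicate 3, WT replicate 4 or APP_KO replicate 1. In APLP2_KO it turned below 0, to -0.013, -0.0017 and -0.0072, without WT replicate 1, APLP2_KO replicate 1 or APLP2_KO replicate 3, and was 0.014 to 0.024 without WT replicate 3 or 4 or APLP2_KO replicate 2 or 4. In N_dCKO it was -0.052 without WT replicate 1, and -0.018, -0.017 and -0.020 without WT replicate 3, WT replicate 4 or N_dCKO replicate 4.

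**Figure D1:**
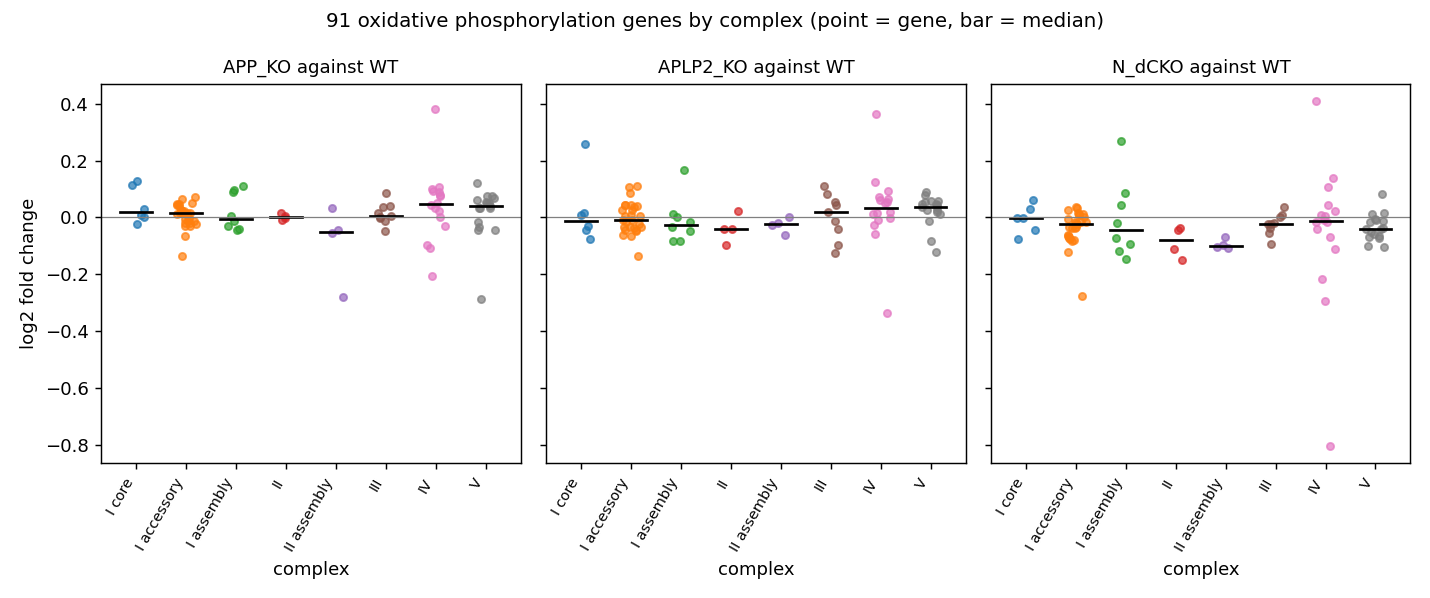
Log2 difference from WT (vertical axis, log2 units) of each of the 91 genes that passed the filter (points), by complex (horizontal axis), in APP_KO, APLP2_KO and N_dCKO, with 4 arrays per group. Black bars are medians of a complex. All 4 subunits and all 4 assembly factors of complex II lay below 0 in N_dCKO, and in each knockout the point farthest from 0 is a complex IV isoform with low signal.

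**Figure D2:**
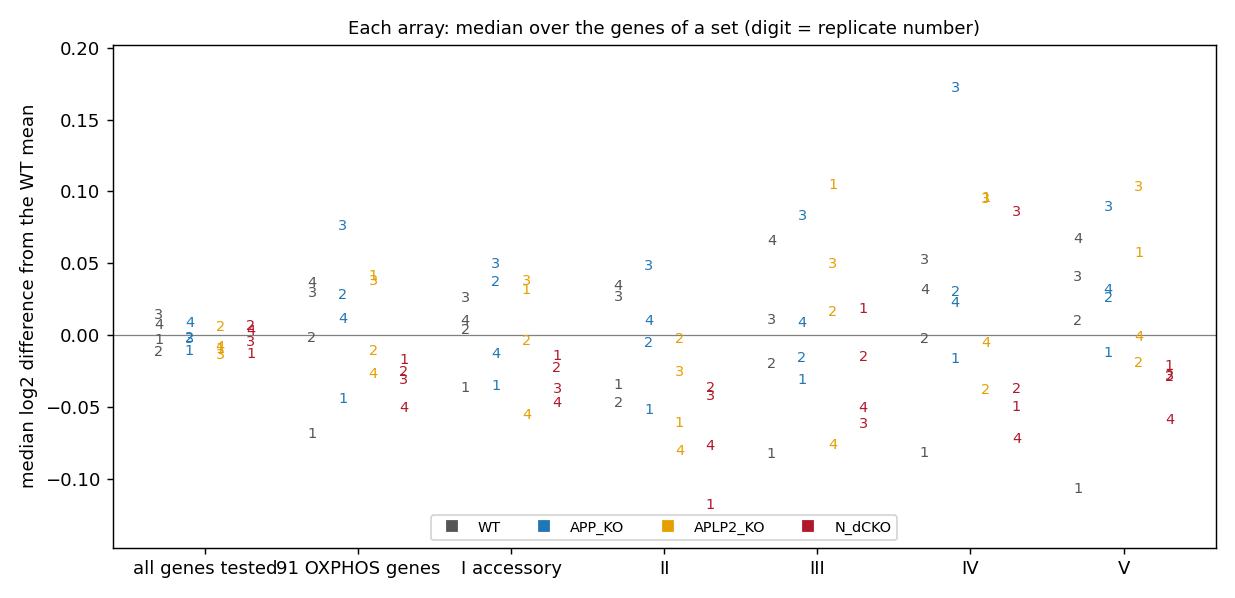
Median log2 difference from the WT mean (vertical axis) for each of the 16 arrays, over all genes tested, the 91 oxidative phosphorylation genes and single complexes. Digits are replicate numbers and colours are genotypes; the medians over the 91 genes were -0.051 to -0.017 in N_dCKO and -0.069 to 0.037 in WT.

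Among the complex I subunits, Ndufs5 had the smallest p. The 6 core subunits, which hold the flavin and iron-sulphur clusters that carry electrons, had WT signals of 3925 to 8788 and a median log2 difference of -0.00063 in N_dCKO, 0.020 in APP_KO and -0.011 in APLP2_KO. The 27 accessory subunits that passed had a median of -0.025 in N_dCKO, with 19 below 0, and of 0.014 and -0.0072 in APP_KO and APLP2_KO. Ndufs5, a small accessory subunit read by a single probe set, had signals of 5828, 6279.6, 5825 and 5868 in WT, 4905, 6431, 6042 and 6038 in APP_KO, 6083, 5343, 5723 and 6039.8 in APLP2_KO and 4839, 4931, 5028 and 4859 in N_dCKO. All 4 N_dCKO arrays lay below all WT and all APLP2_KO arrays, and 1 APP_KO array, replicate 1, lay among them. The mean was 4914 ± 85.4 in N_dCKO and 5950.2 ± 220.4 in WT (SD, n = 4). The log2 difference was -0.27 ± 0.067 (SE), with a 95% interval of -0.41 to -0.14, an unadjusted p of 0.000561 and a limma adjusted p of 0.0546, just outside the threshold. The call depended on the setting. The adjusted p was 0.0458 after quantile normalization, 0.0487 with the mean over probe sets, 0.0444 with the replicate block and 0.0192 with only the groups compared, and it was 0.0758 to 0.177 when 1 array was left out.

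Other accessory subunits of complex I differed by less. Ndufb10, in the membrane arm, had signals of 4575, 4291, 4264 and 4682 in N_dCKO and 4831, 4988, 4943 and 4619 in WT. Its log2 difference was -0.12 ± 0.050, with an unadjusted p of 0.0246 and a limma adjusted p of 0.317, and the groups overlapped at 1 array. Ndufb9, also of the membrane arm, had 13268, 13393, 13816 and 13143 in N_dCKO and 13883, 14108, 14821 and 13916 in WT. These groups did not overlap, yet the log2 difference was only -0.081 ± 0.045. Another bright Ndufb9 probe set, with a WT signal of 11021, gave -0.033. Ndufa6 had its lowest values in APLP2_KO, 4348, 4852, 4550.0 and 4470.1, below all WT arrays (4979, 4992, 4939 and 5089). There its log2 difference was -0.14 ± 0.047, with an unadjusted p of 0.00943 and a limma adjusted p of 0.457. In N_dCKO its signals were 4867, 4870.1, 4614 and 4765, again below all WT arrays, and the log2 difference was -0.065 ± 0.047.

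In the complex I core, Ndufs7, an iron-sulphur subunit, had signals of 5318, 5623, 5062 and 4789 in APP_KO and 5030.2, 4842, 4591 and 4741 in WT, which overlapped, and was higher in APP_KO in all 4 pairs of arrays of the same number. Its log2 difference was 0.11 ± 0.053, with an unadjusted p of 0.045 and a limma adjusted p of 0.932, which was 0.745 with the replicate block, and the other probe set of the gene gave 0.027. All 4 pairs went the same way for 16 of the 91 genes (11 higher, 5 lower), beside 16% of all genes. With the block 5 of the 91 had an unadjusted p below 0.05 in APP_KO (3 higher, 2 lower), beside 6.38% of all genes, and limma called none. Ndufv1, which binds NADH, did not overlap between APLP2_KO (5213, 5263, 5201 and 5103) and WT (5586, 5558, 5405 and 5339), with a log2 difference of -0.075 ± 0.046. Its other probe sets, with WT signals of 5030 and 4705, gave 0.0092 and -0.045. Ndufs8, another iron-sulphur subunit, was read by 6 probe sets that disagreed. The brightest, with WT signals of 7324, 6834, 6657 and 10350.4 and APLP2_KO signals of 9569.8, 9624, 9528 and 8061, gave a log2 difference of 0.26 ± 0.12. A dim probe set with a WT signal of 128 ± 27.2 gave -0.67, and the other 4 gave -0.089 to 0.11.

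The 8 complex I assembly factors help to build the complex and are not part of it. They had WT signals of 382 to 1661, and 5 of the 8 lay below 0 in N_dCKO. Ndufaf2, which acts late in assembly, was the exception with the smallest p. Its signals were 806, 730.5, 728 and 779 in N_dCKO and 589, 699.7, 615 and 620.5 in WT, with no overlap, and 580.4, 652, 799.8 and 685 in APP_KO and 748, 657, 669 and 765 in APLP2_KO. The log2 difference in N_dCKO was 0.27 ± 0.091, with an unadjusted p of 0.00791 and a limma adjusted p of 0.193. Ndufaf1, an early assembly factor, had 1158, 1199, 1241 and 1250.5 in APP_KO, all above the WT arrays (1076, 1154, 1140.3 and 1120.3), with a log2 difference of 0.11 ± 0.059 and a limma adjusted p of 0.997.

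All 4 subunits of complex II had a log2 difference below 0 in N_dCKO, from -0.15 for Sdha to -0.037 for Sdhc, with a median of -0.078. All 4 stayed below 0 under quantile normalization. Median centring lowered every gene, with 87 of the 91 below 0, so the sign could not turn there. All 4 lay below the median of all genes with and without these scalings. In APLP2_KO 3 of the 4 lay below 0, with a median of -0.040, and in APP_KO 2 of the 4, with a median of 0.0027. Complex II, succinate dehydrogenase, also works in the citric acid cycle. Sdha, the flavoprotein that oxidises succinate, had signals of 6475, 6526, 6969.8 and 6954 in WT, 6482, 6976, 6551 and 6893 in APP_KO, 6449, 6534, 6726 and 6474 in APLP2_KO and 5561, 5864, 6552 and 6338 in N_dCKO. Arrays 1 and 2 of N_dCKO lay lowest, and arrays 3 and 4 lay near or within the other groups. The log2 difference from WT was -0.15 ± 0.053 with a 95% interval of -0.26 to -0.039, an unadjusted p of 0.0104 and a limma adjusted p of 0.225. Another Sdha probe set, with a WT signal of 5943 ± 343, gave -0.045. Sdhb, the iron-sulphur subunit, was at -0.045 ± 0.051, and Sdhd, one of the membrane anchors, at -0.11 ± 0.058.

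The 4 assembly factors of complex II also lay below 0 in N_dCKO, from -0.11 for Sdhaf4 to -0.068 for Sdhaf2, and none had an unadjusted p below 0.05. On N_dCKO array 3 their median was -0.26 from the WT mean, and on the other 3 arrays -0.039 to -0.0030, so the group's value rested largely on that array. Sdhaf4, which assists the flavin subunit, had signals of 2305, 2324, 2022 and 2178 in N_dCKO and 2476, 2304, 2423 and 2301 in WT, with a log2 difference of -0.11 ± 0.052. In APP_KO it had 2289, 2286, 2294 and 2268, just below all WT arrays, and a difference of -0.056 ± 0.052. Sdhaf1, which assists the iron-sulphur subunit, had 656, 404, 677 and 669 in APP_KO and 704, 677, 735 and 749.6 in WT, without overlap. Its log2 difference was -0.28 ± 0.13, with an unadjusted p of 0.0451 and a limma adjusted p of 0.932, and leaving out 1 array moved it between -0.35 and -0.10, the smaller size without APP_KO replicate 2.

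The 9 genes of complex III had no member at an unadjusted p below 0.05 against WT in any knockout. Their medians were 0.0043 in APP_KO, 0.019 in APLP2_KO and -0.022 in N_dCKO. Uqcrb, a small subunit near the ubiquinone site, was the brightest, with 21208, 22433, 23458 and 22815 in WT, 21999.9, 23184, 26419 and 24009.5 in APP_KO, 25548, 22770.1, 24569 and 24192 in APLP2_KO and 21191, 22072, 24812 and 20616 in N_dCKO. The groups overlapped, and the log2 differences from WT were 0.086 ± 0.063, 0.11 ± 0.063 and -0.022 ± 0.063. Another Uqcrb probe set, with a WT signal of 3859 ± 478, gave -0.10, -0.11 and -0.011, so the direction in the single knockouts depended on the probe set. Uqcrfs1, the Rieske iron-sulphur protein, was at -0.095 ± 0.081 in N_dCKO and -0.13 ± 0.081 in APLP2_KO, with signals from 4540 to 6371 on the APLP2_KO arrays. Cyc1, cytochrome c1, was at -0.022 ± 0.067 in N_dCKO and -0.10 ± 0.067 in APLP2_KO.

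In each knockout against WT the log2 difference of largest size belonged to a dim isoform of complex IV. This was Ndufa4l2 in APP_KO and APLP2_KO, and Cox6b2 in N_dCKO. The lowest value was that of Atp5md, a bright gene of complex V, in APP_KO and that of Cox7c, also of complex IV, in APLP2_KO. The common forms were bright: WT signals were 16988 ± 569 for Cox4i1, 22633 ± 1588 for Cox6a1, 18057 ± 816 for Cox6b1, 19795 ± 1234 for Cox7a2, 11983 ± 788 for Cox8a and 13187 ± 742 for Ndufa4 (SD, n = 4). Each probe set has its own response, so these levels cannot be ranked against each other. In N_dCKO the log2 differences of these 6 genes ran from -0.069 for Cox8a to 0.023 for Cox7a2, and 95% intervals for all 91 genes are drawn in the plot of intervals. Isoforms of other tissues lay at the low end of the array. Cox4i2, the lung form, at 42.1 ± 21.0 in WT, Cox8b, a muscle form, at 76.4 ± 45.2, and Cox7b2, a testis form, at 80.0 ± 17.7, did not pass the filter, and neither did the complex I subunit Ndufb4, at 57.7 ± 12.7. Just inside it were Ndufa4l2, induced by hypoxia, at 101 ± 14.3, Cox7a1, the muscle form, at 110 ± 18.5, and the testis forms Cox6b2 at 164 ± 41.8 and Cox8c at 180 ± 29.0. Ndufb4 is known as a constant part of complex I, so its probe set here bounds nothing about its RNA.

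Cox6a2, the heart and muscle isoform, had signals of 329.7, 269, 391 and 415 in WT, 404, 372, 375 and 341 in APP_KO, 346, 342, 307 and 366 in APLP2_KO and 422, 478, 459 and 498 in N_dCKO. Every N_dCKO array lay above all 12 others. The log2 difference from WT was 0.41 ± 0.12 with a 95% interval of 0.17 to 0.65, an unadjusted p of 0.00202 and a limma adjusted p of 0.0945, so the gene was not called. When 1 array was left out the adjusted p was 0.0566 to 0.303. In APP_KO and APLP2_KO it was at 0.10 ± 0.12 and -0.028 ± 0.12. Cox6a1, its common counterpart, was at -0.0088 ± 0.080 in N_dCKO.

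Cox6b2, the testis isoform, had 65.7, 83.7, 159 and 66.4 in N_dCKO against 149.7, 209, 113 and 184 in WT, 106, 164, 113 and 182 in APP_KO and 213, 169, 135 and 159 in APLP2_KO. Of the N_dCKO arrays, 3 lay below all others and array 3 lay among the other groups. Array 3 also had the highest choroid plexus level of the N_dCKO arrays, 8.79 against 5.91 to 6.45, and whether this bears on Cox6b2 was not tested. The log2 difference was -0.80 ± 0.25, the lowest of the 91 genes, with a 95% interval of -1.32 to -0.29, an unadjusted p of 0.00413 and a limma adjusted p of 0.139. Without N_dCKO replicate 3 it was -1.07 with a limma adjusted p of 0.0221, the only setting in which it was called. The filter kept Cox6b2 close to its lower edge. Its signals of 65.7, 83.7 and 66.4 in N_dCKO lay below the filter signal of 87.9. The gene passed on its mean over all 16 arrays, to which the higher groups contributed. The difference is thus read near the low end of the array, and its size is uncertain. The added constant of the log scale also shrinks differences there.

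Cox7c, a small subunit, was lower than every WT array in both groups without Aplp2, as read by a dim probe set. Its signals were 307, 291, 316 and 311 in WT, 277, 335, 262 and 266 in APP_KO, 224, 256, 243 and 242 in APLP2_KO and 204, 282, 274 and 242 in N_dCKO. The log2 difference was -0.34 ± 0.11 in APLP2_KO (unadjusted p of 0.00761, limma adjusted p of 0.427) and -0.29 ± 0.11 in N_dCKO (unadjusted p of 0.0174, limma adjusted p of 0.277). Both comparisons used the same 4 WT arrays. A second Cox7c probe set, below the filter, had 69.4 ± 15.7 in WT, 71.7 ± 18.1 in APLP2_KO and 63.8 ± 7.97 in N_dCKO. With both probe sets dim, these values bound little about Cox7c RNA. Cox7a2 was at 0.13 ± 0.059 in APLP2_KO, with signals of 22101, 20710.2, 22118 and 21364 against 18061, 19785, 20521 and 20814 in WT, an unadjusted p of 0.0456 and a limma adjusted p of 0.663. Its other probe set gave 0.14. Ndufa4l2 ran from 80.5 to 114 in WT, 99.7 to 178 in APP_KO and 101 to 183 in APLP2_KO, with log2 differences of 0.38 ± 0.20 and 0.36 ± 0.20, with unadjusted p of 0.0722 and 0.0866.

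**Figure D3:**
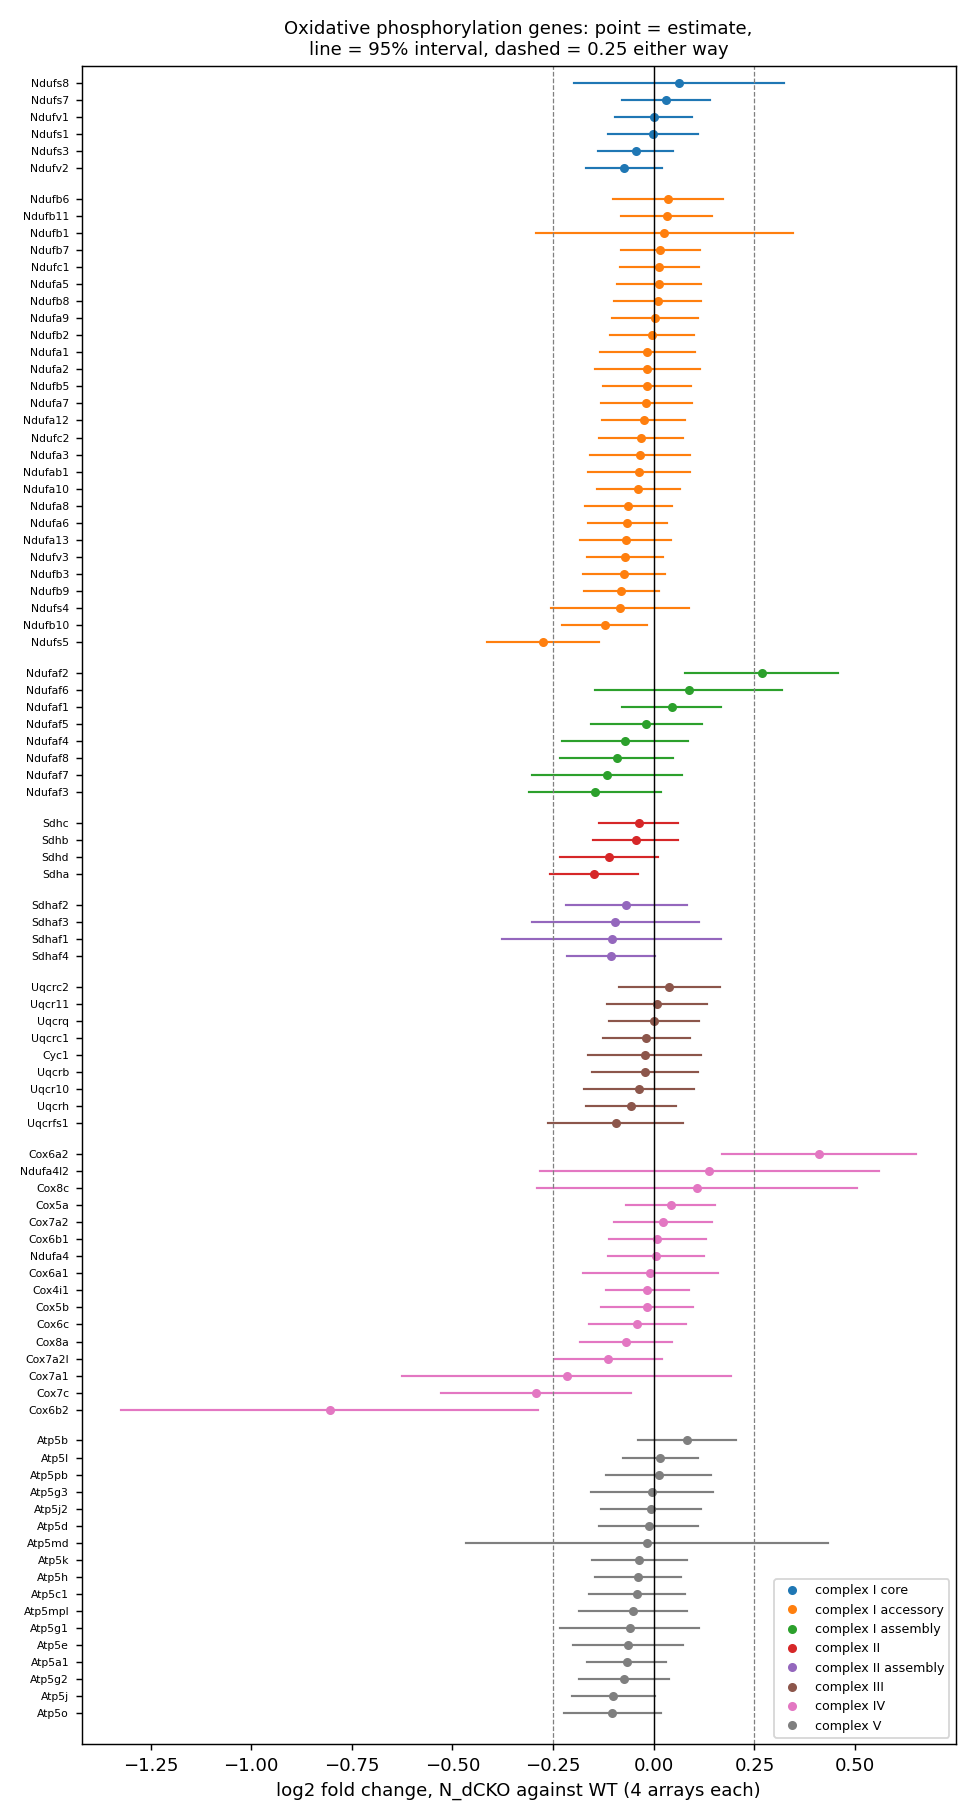
Log2 difference between N_dCKO and WT (horizontal axis) of each of the 91 genes that passed the filter, ordered by complex, with the estimate as a point and its 95% interval as a line. Dashed lines stand at -0.25 and 0.25; 72 of the 91 intervals lay between them, and Cox6b2 and Cox6a2 had the estimates farthest from 0.

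The 17 genes of complex V had WT signals of 4373 to 17531, and without the replicate block none had an unadjusted p below 0.05 against WT. In N_dCKO 14 of the 17 lay below 0 with a median of -0.040, and 12 of the 17 did after quantile normalization. In APLP2_KO 14 of the 17 lay above 0 with a median of 0.036, and in APP_KO 12 of the 17 with a median of 0.039. After quantile normalization these counts were 7 in APLP2_KO and 10 in APP_KO. After median centring they were 2 and 1, where the median of all genes moved to -0.086 and -0.096. Above that median of all genes lay 14 and 12 of the 17, the same as without centring. Atp5b, the catalytic subunit, had signals of 15102, 16265, 16512 and 15475 in WT, 17263, 16034, 18696 and 17039 in APP_KO, 17077, 15510.0, 17995 and 15507 in APLP2_KO and 17478, 16059, 17462 and 16098 in N_dCKO. The groups overlapped, and the largest log2 difference, 0.12 ± 0.059 in APP_KO, had an unadjusted p of 0.0503 and a limma adjusted p of 0.937, and these were 0.0148 and 0.665 with the replicate block. Atp5md, a small subunit of the membrane part, varied widely within a group, with signals of 13039, 14818, 8881 and 15409.7 in WT, 9368, 12439, 6886 and 14907 in APP_KO, 9859, 14096, 9809 and 13870.2 in APLP2_KO and 15004, 14794, 8794 and 12916 in N_dCKO. The groups overlapped, array 3 was the lowest in each of them, and APP_KO was lower than WT in all 4 pairs of arrays of the same number. The log2 difference in APP_KO was -0.29 ± 0.22, the lowest of the 91 genes there, with an unadjusted p of 0.2, and with the block it was -0.29 ± 0.10 with an unadjusted p of 0.0146 and a limma adjusted p of 0.665.

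Of the 91 genes, 4 lie within 20 Mb of a deleted gene. Atp5j, whose product (coupling factor 6) sits in the stalk of the synthase, lies 0.117 Mb from App on chromosome 16, and Atp5o, which joins the stalk to the catalytic head, lies 6.75 Mb away. Atp5l lies 13.7 Mb and Sdhd 19.4 Mb from Aplp2 on chromosome 9. Atp5j had 9515, 10560.1, 9978 and 10773 in WT, 9236, 10380.2, 10012 and 9923 in APP_KO, 9351, 9816, 9730.0 and 9586 in APLP2_KO and 9054, 9644, 9660.0 and 9702 in N_dCKO. Its log2 differences were -0.045 ± 0.049 in APP_KO, -0.084 ± 0.049 in APLP2_KO and -0.10 ± 0.049 in N_dCKO, and the groups overlapped in all 3 comparisons. Gabpa, which encodes an ETS factor, starts beside Atp5j on the opposite strand, and the stretch printed above lies where their promoter windows overlap. Gabpa itself was at -0.019 ± 0.079 in APP_KO and -0.037 ± 0.079 in N_dCKO. Atp5o was at 0.076 ± 0.057 in APP_KO and -0.10 ± 0.057 in N_dCKO with the probe set used, and at -0.089 and 0.12 with its other probe set. For Atp5l the differences were 0.059 ± 0.044 in APLP2_KO and 0.017 ± 0.044 in N_dCKO, and for Sdhd -0.10 ± 0.058 and -0.11 ± 0.058. Median centring took Atp5l below 0. It lowered every gene, with the median of all genes at -0.086 in APLP2_KO and -0.092 in N_dCKO.

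**Figure D4:**
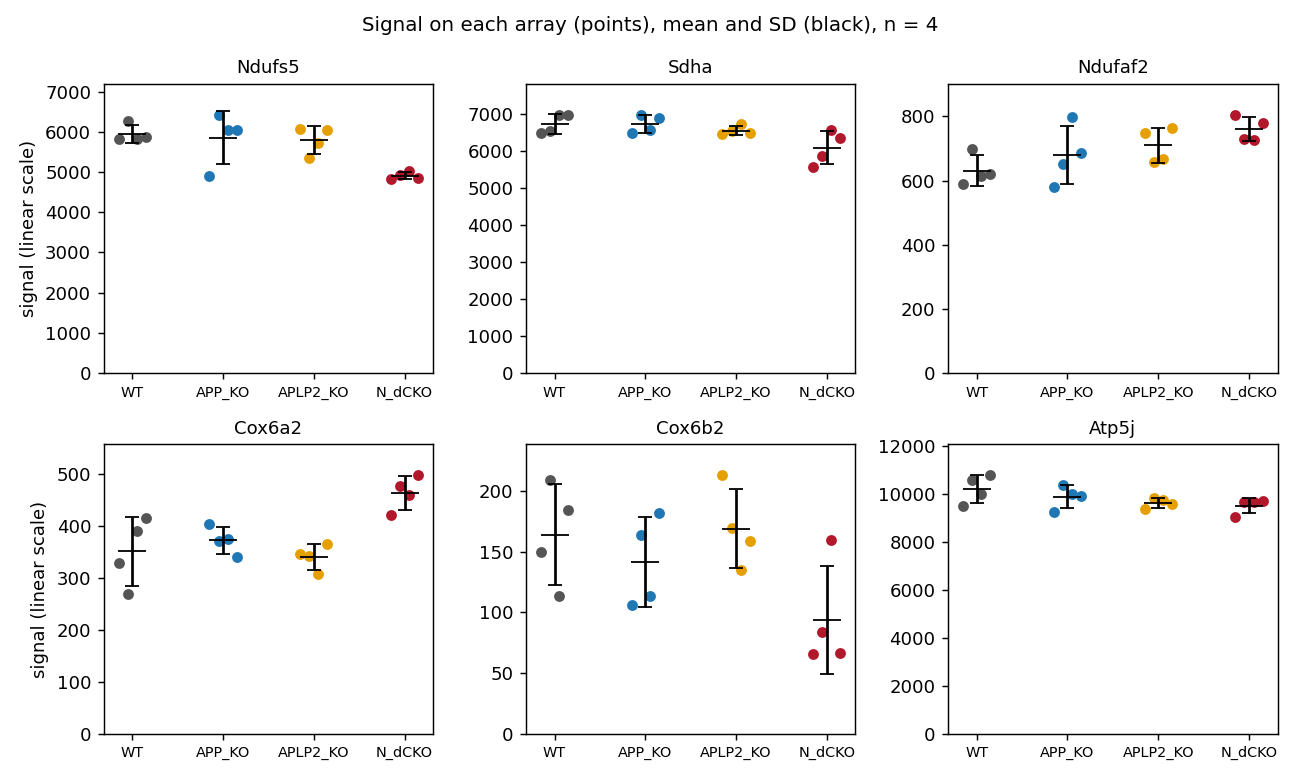
Signal on each array (points, linear scale from 0) with the mean and SD of the group (black, n = 4) for 6 genes in WT, APP_KO, APLP2_KO and N_dCKO. The 4 N_dCKO arrays of Ndufs5 lie below all WT arrays, those of Cox6a2 lie above all other arrays, and for Cox6b2 N_dCKO array 3 lies apart from the other 3.

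N_dCKO was also set against each single knockout. These comparisons share the N_dCKO arrays with each other and with the comparison against WT. The median over the 91 genes was -0.056 against APP_KO, with 77 below 0, and -0.044 against APLP2_KO, with 68 below 0, while the medians of all genes were -0.0012 and 0.0044. After quantile normalization these were smaller, at -0.025 with 65 below 0 and -0.011 with 53 below 0. Leaving out 1 array gave -0.074 to -0.036 against APP_KO and -0.064 to -0.030 against APLP2_KO. With limma no member was called, where 0.351% (41 genes) and 0.0257% (3 genes) of all genes were. At an unadjusted p below 0.05 stood 9 of the 91 against APP_KO (1 higher, 8 lower) and 6 against APLP2_KO (1 higher, 5 lower), with 420 higher and 480 lower, and 482 higher and 503 lower, of all 11668 genes. Ndufs5 was at -0.24 ± 0.067 against APP_KO and -0.24 ± 0.067 against APLP2_KO, with limma adjusted p of 0.182 and 0.266. Cox6a2 was at 0.31 ± 0.12 and 0.44 ± 0.12, with limma adjusted p of 0.474 and 0.218, and Cox6b2 at -0.60 ± 0.25 and -0.86 ± 0.25, with 0.552 and 0.278. Atp5o was at -0.18 ± 0.057 against APP_KO (limma adjusted p of 0.327), and those groups did not overlap with the probe set used. Its other probe set went the opposite way, with a signal of 3899 ± 224 in N_dCKO and 3389 ± 359 in APP_KO.

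The interaction asks whether the double loss differs from the sum of the single losses. With limma it was called for 0 of the 91 genes and for 0% of all genes (0 of 11668), and 6 of the 91 had an unadjusted p below 0.05, all below 0, against 238 above and 247 below 0 of all genes. The median over the 91 genes was -0.060, with 69 below 0, and the median of all genes was 0.0077. This median was -0.015 after quantile normalization, with 49 below 0, and 0.023 after median centring, with 35 below 0, where the median of all genes moved to 0.090. The smallest unadjusted p belonged to Uqcrb, at -0.22 ± 0.089 (unadjusted p of 0.0233), followed by Atp5o at -0.19 ± 0.081 (0.0287) and Cox5b at -0.18 ± 0.078 (0.0308), each with a limma adjusted p of 0.9997. These values are those of the probe set used for each gene. Against WT the other probe set of Uqcrb gave -0.10, -0.11 and -0.011 in APP_KO, APLP2_KO and N_dCKO, opposite to the one used in both single knockouts. That of Atp5o gave -0.089, 0.086 and 0.12, opposite in APP_KO and N_dCKO. The other bright probe sets of Cox5b gave 0.017 to 0.058, 0.032 to 0.099 and -0.043 to -0.011, the same directions as the one used. A dim Cox5b probe set, with a WT signal of 108, gave -0.25, -0.49 and -0.19. The 95% interval lay within 0.25 either way for 43 of the 91 genes, fewer than in the comparisons against WT, as the SE of an interaction is larger (median 0.081).

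Other genes that supply or build the respiratory chain were taken from lists, and limma called none of them in a knockout against WT, beside the 0.943% of all genes called in N_dCKO. The counts at an unadjusted p below 0.05 in N_dCKO stand beside 12% of all genes (595 higher, 802 lower), and all but that of the regulators, at 25%, were near or below that share. Of 17 genes of pyruvate dehydrogenase and the citric acid cycle, 0 had an unadjusted p below 0.05 in N_dCKO, with a median log2 difference of 0.013. Of 13 glycolysis genes 0 did, with a median of 0.0069. Of 31 assembly factors whose names fall outside the rule 5 did (2 higher, 3 lower), led by Acad9, a complex I assembly factor, at 0.45 ± 0.12 with a limma adjusted p of 0.0922. Of 18 electron carriers, ATP exporters and channels 1 did, Etfb, which passes electrons from fat oxidation to the chain, at -0.29 ± 0.079 with a limma adjusted p of 0.0869. Of 16 regulators of mitochondrial genes 4 did, all higher, led by Ppargc1a, a coactivator of mitochondrial biogenesis, at 0.25 ± 0.067 with a limma adjusted p of 0.088. Ppargc1a was at 0.17 ± 0.067 in APP_KO and 0.21 ± 0.067 in APLP2_KO. Of 9 mitochondrial antioxidant and uncoupling genes 1 did, Nnt, a mitochondrial transhydrogenase, at 0.43 ± 0.15, with -0.25 ± 0.15 in APP_KO and 0.34 ± 0.15 in APLP2_KO. Of 76 mitochondrial ribosome genes 54 lay below 0 in N_dCKO, with a median of -0.049, and 6 had an unadjusted p below 0.05 (1 higher, 5 lower). ND5, a complex I subunit encoded in mitochondrial DNA, was the only such gene with a usable probe set, and its log2 difference was 0.12 ± 0.086 in APP_KO, 0.15 ± 0.086 in APLP2_KO and 0.033 ± 0.086 in N_dCKO.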

How the data were processed

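The authors deposited linear microarray intensity values from MAS5 (named in the submitters' processing notes; version not given in the sources used here), scaled to a 2% trimmed mean of 500 on all 16 arrays. No further normalization was applied. Values were read in R 4.3.3 with version 1.17.8 of data.table, and 64 control probe sets were left out. Signals were transformed as log2(signal + 9), and a difference on this scale understates that of dim genes. Of the probe sets, 34945 had 1 gene symbol in the platform annotation, 932 had several and 9160 were not listed. The 10 with several symbols that included a respiratory gene were not used. Probe sets at or above the median mean log2 signal were kept, and each gene was represented by its brightest. limma 3.58.1 fitted 1 mean per group over all 16 arrays with a variance trend (19.4 degrees of freedom after moderation). Benjamini-Hochberg adjustment of two-sided p-values covered 11668 genes. Values after ± are SE for log2 differences and SD for signals. Precision is limited by the number of arrays. The fit was tested on simulated data.

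The members and lists were chosen with earlier results of these data known. Genes are named by a rule: called members, the 2 of each complex with the smallest p in each knockout against WT, members whose N_dCKO and WT arrays do not overlap, tissue isoforms, members within 20 Mb of App or Aplp2, members whose probe sets disagree by over 0.5, and leading genes of each list; any other member named here was chosen after its values were seen. Replicate numbers come from the titles. Deviations of same-numbered arrays of APP_KO and WT correlated at 0.19 to 0.30, so these samples were taken as paired, and the block left the count of called members there at 0. In the other pairs of groups at least 1 correlation was under 0.1 (N_dCKO and WT, -0.021 to 0.037). The alternatives tried were median centring, quantile normalization, filters and pseudocounts of other sizes, all probe sets of a gene averaged or each alone, no variance trend, the replicate block, only the groups compared, a window of 10 Mb (2 members) and leaving out each array. Promoters were searched with Python 3.11.15 and pandas 2.3.3, and figures drawn with matplotlib 3.10.9.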

Additional observations from a re-analysis of the deposited data

Results flagged for a closer look

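Of 80 groups of 4 arrays examined (single genes and medians of a complex), 3 had an array whose gap to the nearest other, divided by the range of the group, was above Dixon's critical value, and chance alone gives this in about 1 of 20 groups. For Ndufs5 the WT array 2 lay high, at a signal of 6280 against 5825 to 5868 on the other 3 arrays, with a gap ratio of 0.904. For Sdhaf1 the APP_KO array 2 lay low, at 404 against 656 to 677, with a gap ratio of 0.938. The median of the complex II assembly factors lay low on N_dCKO array 3, at -0.26 from the WT mean, with a gap ratio of 0.858.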

How the results depend on the processing

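No member was called in APP_KO or APLP2_KO against WT or in the interaction under any alternative run with limma. In N_dCKO against WT the count of called members was 1, Ndufs5, under quantile normalization, the mean over probe sets, the replicate block, only the groups compared, and only the groups compared with the replicate block (chosen after seeing the data; its limma adjusted p was 0.0459), and 0 under the other 6 alternatives that kept all arrays. Leaving out 1 array gave 0 to 1 called members against WT and against APLP2_KO (Cox6b2 without N_dCKO replicate 3) and 0 to 1 against APP_KO (Ndufs5 without APP_KO replicate 1). The replicate block turned no other call, but counts at an unadjusted p below 0.05 in limma rose. Lower members went from 8 to 15 in N_dCKO against APP_KO, from 5 to 8 against APLP2_KO and from 6 to 12 in the interaction. The shares over all genes with the block were not counted for these comparisons, so the rise cannot be read as particular to the members. Genes called in limma over all genes also rose with the block, from 41 to 57 against APP_KO and from 3 to 17 against APLP2_KO. In the interaction they stayed at 0. Between groups, all 4 arrays of one group correlated best with the array of their own number in the other for APP_KO with WT and N_dCKO with APLP2_KO, 3 of 4 for APLP2_KO with APP_KO, 1 of 4 for APLP2_KO with WT and N_dCKO with APP_KO, and 0 of 4 for N_dCKO with WT, a hint from the data and not from the design. The median over members moved by more than the spread between arrays under median centring, to -0.077 in APP_KO, -0.070 in APLP2_KO, -0.12 in N_dCKO and 0.023 in the interaction, and under quantile normalization, to -0.011 in N_dCKO against APLP2_KO and -0.015 in the interaction. Neighbours of App and Aplp2, none of them called, turned direction. Under median centring Atp5l was at -0.059, -0.019 and -0.071 in APP_KO, APLP2_KO and N_dCKO, Atp5o at -0.016 and -0.066 in APP_KO and APLP2_KO, and Sdhd at -0.086 in APP_KO. Centring lowered every gene of a comparison by the same amount. It moved the median of all genes to -0.096 in APP_KO, -0.086 in APLP2_KO and -0.092 in N_dCKO. Under quantile normalization Atp5o was at -0.012 in APLP2_KO. With the mean over probe sets Atp5o was at -0.0065 in APP_KO and 0.0068 in N_dCKO, and Sdhd at -0.069 in APP_KO. With the other probe set alone Atp5o was at -0.089 and 0.12, and Sdhd at -0.14. Leaving out 1 array gave -0.038 to 0.032 for Sdhd in APP_KO, -0.038 to 0.046 for Atp5o in APLP2_KO and -0.0091 to 0.035 for Atp5l in N_dCKO. The cause of the turns other than those under median centring was not tested. Dim isoforms close to the filter, and genes read by 1 probe set, limit what can be said of single members.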
